A study of Rattus norvegicus with 38 samples.

Results

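The wall of a blood vessel rests on extracellular matrix, and 8 rat genes of that matrix were followed through all 8 groups of the study. They encode the chains of the fibrillar collagens (Col1a1, ENSRNOG00000003897, Col1a2, ENSRNOG00000011292, and Col3a1, ENSRNOG00000003357), the chains of basement membrane collagen (Col4a1, ENSRNOG00000016281, and Col4a2, ENSRNOG00000023972), the adhesive glycoprotein fibronectin (Fn1, ENSRNOG00000014288), the collagen-binding protein osteonectin (Sparc, ENSRNOG00000012840) and an inhibitor of matrix-degrading proteases (Timp1, ENSRNOG00000010208). The genes were chosen by Ensembl ID and not by a rule on a measured value, though with earlier results of these data known. All 8 IDs stood among the 32883 IDs of the deposited count table. That table pairs no ID with a name, so the symbols are those given with the choice of genes. At least 1 count was found for 7 of the 8 genes. The filter on low counts kept 7 of the 8 in the vessel fit, 6 in the neuron fit and 7 in the fit across both materials.

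In brain vessels, type IV collagen forms the sheet on which endothelial cells and pericytes sit, and its usual protomer joins Col4a1 and Col4a2 chains. Type I collagen, usually built from Col1a1 and Col1a2 chains, and type III collagen, built from Col3a1 chains, form the stiffer fibrils laid down by fibroblasts and smooth muscle cells. Fibronectin links cells to the matrix, osteonectin helps collagen to assemble, and TIMP-1 blocks matrix metalloproteinases.

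The study took cortical tissue from 19 numbered rats by laser microdissection and sequenced 2 libraries per rat, 1 of cortical blood vessels and 1 of clusters of cortical neurons. For each material the groups were late SHRSP (5 rats), late Wistar (4), early SHRSP (5) and early Wistar (5), where late means an age of 32 to 34 weeks and early an age of 24 to 25 weeks. SHRSP, the stroke-prone spontaneously hypertensive rat, is an inbred strain, and the labels give no treatment and no sex for any group. High blood pressure and the rest of the strain's genetic background cannot be told apart in a comparison with Wistar rats, and the labels use the words early and late hypertension for the Wistar groups too. Nor can fewer cells of a type and less RNA per cell be told apart in cut-out tissue of this kind.

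The libraries held between 1198386 and 4963429 counts. In vessel libraries 4104 to 11974 IDs had at least 1 count, and in neuron libraries 9501 to 14305. The rats fell into 2 sets by the share of neuron counts taken by the most abundant ID (ENSRNOG00000043866), which was at least 20.4% in 11 rats (high-share rats) and at most 10.7% in the other 8 (low-share rats). All 9 late rats and the early rats 349 (Wistar) and 383 (SHRSP) were high-share, so stage and set can hardly be told apart. Vessel libraries of high-share rats had 9875 to 11974 IDs detected and those of low-share rats 4104 to 8752. Marker genes of cell types could not be looked up by name, so the labelled materials were not checked against them.

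Transcripts of Col1a1, Col3a1, Col4a1, Fn1 and Sparc were higher in vessels than in neurons. With edgeR's quasi-likelihood test over all 38 libraries and the rat as a block, 5 of the 7 genes tested were higher in vessels at a Benjamini-Hochberg adjusted p under 0.05 (a call, below), and none was called lower. Over all 12117 IDs tested, 50.5% were called, 3.08% higher and 47.5% lower in vessels. The median log2 fold of vessels over neurons was 2.37 for the 7 genes and -1.63 for all IDs. This background moved with the fit: the median of all IDs was -1.44 with relative log expression in place of TMM, -1.05 with limma (voom with quality weights), -0.49 in the high-share rats alone and -0.38 without the rat as a block. Calls over all IDs were 373 higher and 5751 lower in the fit reported, 719 higher and 1167 lower in the high-share rats, and 941 higher and 2134 lower without the block. Levels below are CPM, counts per 1000000 counts of the library's effective size, on 1 TMM scale for all libraries. Reads of 3′ end libraries sample each transcript once near its end, so levels of different genes are set side by side without a length term. Whether the annotation used assigned the reads of each gene equally well was not tested. Orders and ratios of genes below are therefore those of reads assigned to each ID. The 8 genes took 0.0684% to 0.328% of the counts of a vessel library and 0.0303% to 0.0677% of those of a neuron library.

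**Figure D1:**
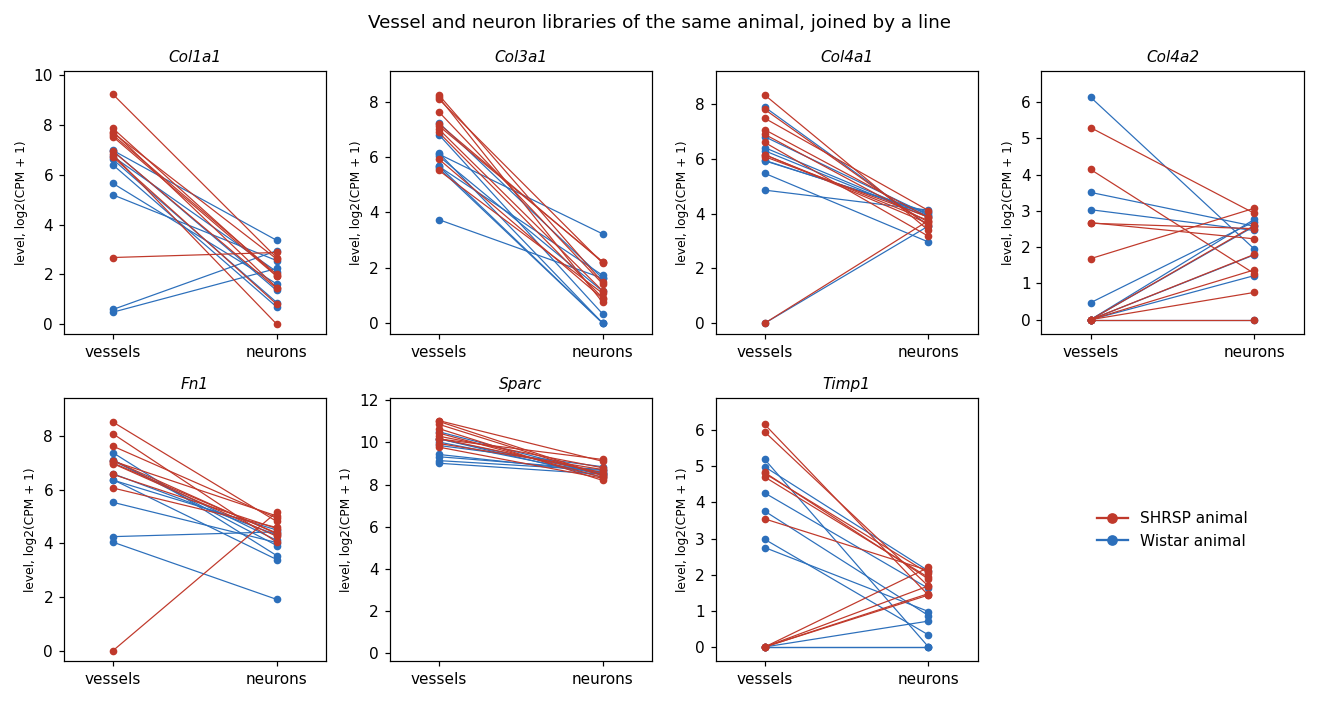
Level of each gene as log2(CPM + 1) in the vessel library (left) and the neuron library (right) of the same rat, joined by a line, for 10 SHRSP and 9 Wistar rats. Col3a1 and Sparc are higher in vessels in 19 of 19 rats, while the lines of Col4a2 run both ways.

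The order of the genes differed between the materials. By the median of the 19 vessel libraries, Sparc came first with 1151 CPM, followed by Fn1 (124 CPM), Col1a1 (111 CPM), Col3a1 (111 CPM), Col4a1 (77.9 CPM), Timp1 (10.7 CPM) and Col4a2 (0 CPM). The lowest Sparc value, 515 CPM, lay above the vessel medians of all other genes, while Fn1, Col1a1, Col3a1 and Col4a1 overlapped one another over most of their ranges. The order of these 4 differed between the sets of rats. Their medians were 132 CPM for Fn1, 122 CPM for Col1a1, 77.9 CPM for Col4a1 and 64.4 CPM for Col3a1 in the 11 high-share libraries. In the 8 low-share libraries they were 148 CPM for Col3a1, 81.1 CPM for Col4a1, 73.6 CPM for Fn1 and 73.5 CPM for Col1a1. By the median of the 19 neuron libraries the order was Sparc (369 CPM), Fn1 (19.4 CPM), Col4a1 (12.5 CPM), Col4a2 (3.68 CPM), Col1a1 (2.82 CPM), Timp1 (1.78 CPM) and Col3a1 (1.24 CPM). In neurons, Sparc again lay apart from all others, and the last 4 genes overlapped. Over the vessel libraries the coefficient of variation of the level was 0.394 for Sparc, 0.713 for Col3a1, 0.733 for Fn1, 0.802 for Col4a1, 0.977 for Col1a1, 1.20 for Timp1 and 2.14 for Col4a2.

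Col3a1, the chain of type III collagen, had the largest difference between the materials among these genes in the fit over all 38 libraries. Its vessel libraries ranged from 12.4 to 302 CPM with a median of 111 CPM, against 0 to 8.35 CPM with a median of 1.24 CPM in neuron libraries. The ranges did not overlap, and vessels were higher in 19 of 19 rats. The fit put vessels 75.4-fold above neurons, a log2 fold of 6.24 ± 0.70 (SE) at an adjusted p of 3.35e-16. The neuron side held only 102 counts over 19 libraries, with 3 libraries at 0, so the size of this fold rests on very low counts. Within the 11 high-share rats the log2 fold was 4.91 (SE 0.48, adjusted p = 6.15e-12), less than the 5.55 of Col1a1 there. Col1a1 also had the larger log2 fold in late Wistar rats, 5.76 beside 5.01 for Col3a1, and the 2 were close in late SHRSP rats (6.39 and 6.38).

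Col1a1, the more abundant chain of type I collagen, ranged from 0.398 to 599 CPM in vessels with a median of 111 CPM, against 0 to 9.31 CPM with a median of 2.82 CPM in neurons. The fit put vessels 30.6-fold above neurons (log2 4.93 ± 0.69, adjusted p = 2.6e-10), and they were higher in 16 of 19 rats. The exceptions were the early rats 380 (SHRSP), 343 and 346 (both Wistar), all of the low-share set. Their vessel libraries held 16, 2 and 1 counts of Col1a1 beside 807, 188 and 378 counts of Col3a1. Summed over the 19 vessel libraries the 2 genes were close, with 8344 counts of Col1a1 and 7365 of Col3a1, and Col1a1 had the higher count in 11 of the 19. In the high-share rats Col1a1 was higher in vessels in 11 of 11 (log2 fold 5.55, SE 0.38, adjusted p = 1.15e-18).

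Col1a2, the partner chain of Col1a1, had 0 counts in all 38 libraries. Over the 64142725 counts of the vessel libraries, a count of 0 allows a level of up to 0.0468 CPM of reads assigned to this ID. Whether the annotation used could assign Col1a2 reads to the ID was not tested, so this is no limit on the transcript itself. Col1a1 was counted in 19 of the 19 vessel libraries in which Col1a2 was listed at 0. Of all IDs in the table, 13725 (41.7%) had 0 counts in every library. Neither build nor annotation behind the counting is given in the sources used here.

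The chains of type IV collagen were also counted unequally. Col4a1 ranged from 0 to 323 CPM in vessels with a median of 77.9 CPM, against 6.82 to 16.5 CPM with a median of 12.5 CPM in neurons. The difference was 5.87-fold (log2 2.55 ± 0.64, adjusted p = 0.000646), and vessels were higher in 17 of 19 rats, the exceptions being the early rats 377 (SHRSP) and 346 (Wistar) with 0 vessel counts. Within the high-share rats its log2 fold was 2.88 (SE 0.34, adjusted p = 9.45e-10).

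Col4a2, the partner of Col4a1 in the basement membrane protomer, was absent from the counts of many vessel libraries. It was at 0 in 10 of the 19, and 8 of these 10 held counts of Col4a1. The vessel libraries ranged from 0 to 69.1 CPM, against 0 to 7.41 CPM in neuron libraries with a median of 3.68 CPM. Vessels were higher in 7 rats, lower in 10 and equal in 2. The log2 fold of vessels over neurons was -2.08 (SE 1.06, adjusted p = 0.0842), while the summed counts were 532 in vessels and 191 in neurons, and most of the vessel counts lay in 3 libraries (of rats 379, 383 and 368). That fold was 0.02 in the high-share rats alone and 0.88 without the rat as a block. It was called, as lower in vessels, by DESeq2 and in edgeR without rat 353 or 383. Over the vessel libraries Col4a1 had 12.5 times the counts of Col4a2 (6663 against 532), and over the neuron libraries 3.67 times (701 against 191). Col4a1 had the higher count in 17 vessel libraries and in 19 neuron libraries, and in no library did Col4a2 have more.

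The start sites of both genes lie close together, and the DNA around them is printed here. The counts above come from reads near the transcripts' ends, and any link of this stretch to them was not tested. RefSeq places the start sites of Col4a1 and Col4a2 head to head on chromosome 16 of the GRCr8 assembly, on opposite strands. The windows below run 5′ to 3′ along each gene's own strand and end 50 bases after its start, and capitals mark the 176 bases that both windows share, which read as reverse complements of each other. The Col4a1 window is chr16:84885347-84885646 (plus strand) and the Col4a2 window is chr16:84885471-84885770 (minus strand).
Col4a1: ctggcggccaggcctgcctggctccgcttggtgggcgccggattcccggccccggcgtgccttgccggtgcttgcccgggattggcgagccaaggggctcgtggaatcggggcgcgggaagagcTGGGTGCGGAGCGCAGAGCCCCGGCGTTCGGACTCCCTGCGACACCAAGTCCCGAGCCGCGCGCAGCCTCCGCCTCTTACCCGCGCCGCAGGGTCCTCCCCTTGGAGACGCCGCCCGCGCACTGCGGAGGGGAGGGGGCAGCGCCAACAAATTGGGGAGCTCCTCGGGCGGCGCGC
Col4a2: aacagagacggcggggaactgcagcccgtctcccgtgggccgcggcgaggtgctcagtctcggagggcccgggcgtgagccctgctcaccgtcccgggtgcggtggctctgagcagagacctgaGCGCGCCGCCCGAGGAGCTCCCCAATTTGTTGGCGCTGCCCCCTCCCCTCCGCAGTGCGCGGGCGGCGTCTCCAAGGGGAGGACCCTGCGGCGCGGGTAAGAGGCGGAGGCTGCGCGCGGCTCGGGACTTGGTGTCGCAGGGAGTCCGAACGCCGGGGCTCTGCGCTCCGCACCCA
Searched on both strands, the letters CCAAT occur 2 times in the Col4a1 window and 1 time in the Col4a2 window, 1 of them in the shared stretch. The letters GGGCGG occur 2 times in each window, both in the shared stretch, and TATAAA occurs in neither. Of 33469 windows of this length in the RefSeq table, 37.5% hold CCAAT, 33.1% hold GGGCGG and 14.2% hold TATAAA. Windows were found for 5 of the 8 genes, also for Col1a2 (CCAAT and TATAAA 1 time each), Sparc (none of the 3 motifs) and Timp1 (GGGCGG 1 time). Such matches describe letters and are not tests of binding.

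Fn1, which encodes fibronectin, stood 5.17-fold higher in vessels than in neurons (log2 2.37 ± 0.58, adjusted p = 0.000508). Vessel libraries ranged from 0 to 364 CPM with a median of 124 CPM, against 2.75 to 34.8 CPM with a median of 19.4 CPM in neuron libraries. Vessels were higher in 17 of 19 rats and in 11 of the 11 high-share rats (log2 fold 2.77, SE 0.30, adjusted p = 5.08e-11). Rat 377, an early SHRSP rat of the low-share set, had 0 vessel counts of Fn1 and of Col4a1 in the library with the fewest IDs detected (4104), while the same library held the highest levels of Col1a1 and Sparc, 599 and 2100.5 CPM.

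Sparc, the osteonectin gene, had the highest levels and was the least variable of the 8. Vessel libraries ranged from 515 to 2100.5 CPM with a median of 1151 CPM, against 292 to 583 CPM with a median of 369 CPM in neuron libraries. Vessels were higher in 19 of 19 rats, by 2.85-fold (log2 1.51 ± 0.19, adjusted p = 2.19e-13). Its difference between the materials was thus small in size beside those of the collagens and had the smallest standard error.

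Timp1, the protease inhibitor, did not pass the test between the materials, with a log2 fold of 1.34 (SE 1.23, adjusted p = 0.348). Vessel libraries ranged from 0 to 70.5 CPM, against 0 to 3.60 CPM in neuron libraries. Vessels were higher in 12 rats, lower in 5 and equal in 2. In the high-share rats vessels were higher in 10 of 11. It was called, as higher in vessels, by DESeq2, by limma and without the rat as a block. By group its edgeR log2 folds were 3.20 (late SHRSP), 4.26 (late Wistar), -3.72 (early SHRSP) and 1.63 (early Wistar), none of them called. In both late groups it was called higher in vessels by limma and in the high-share rats alone, and not by DESeq2. In early SHRSP rats alone it was called lower in vessels by DESeq2 (log2 fold -3.26, adjusted p = 0.0389) and in edgeR without rat 383 (-5.69, adjusted p = 0.0312).

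Taken group by group with the same fit, Col1a1, Col3a1 and Sparc were called higher in vessels in late SHRSP rats, where 0.693% of IDs were called higher and 0.883% in all. The same 3 genes were called in early SHRSP rats, where 1.16% of IDs were called higher and 39.1% in all. In late Wistar rats the call was Col1a1 (0.33% of IDs higher, 0.371% in all), and in early Wistar rats Col3a1 (0.305% of IDs higher, 0.677% in all). These counts depended on the fit. DESeq2 and limma called between 2 and 6 of the 7 genes in each group, while the IDs they called in all numbered 178 (limma, early Wistar) to 6802 (DESeq2, early SHRSP) of 12117. The Col1a1 call in late Wistar rats was lost without any 1 of those 4 rats. The Col3a1 log2 fold in early Wistar rats was 7.06, and 3.06 in the high-share rats alone, which include 1 early Wistar rat. Sparc missed the threshold in Wistar rats with log2 folds of 1.38 (SE 0.40, adjusted p = 0.117) in late rats and 0.99 (SE 0.36, adjusted p = 0.0994) in early rats. Col4a1 missed it narrowly in early SHRSP rats (log2 fold 3.22, SE 1.38, adjusted p = 0.0506) and was called there in 9 of 25 alternatives. Whether the strain difference itself differed between vessels and neurons was tested over the same libraries, and none of the 7 genes was called, with adjusted p from 0.865 to 1. Of all IDs 0% were called in that test, 686 (5.66%) had an unadjusted p under 0.05, and DESeq2 called 325 and limma 1. The unadjusted count among the 7 genes was 0, and both other tools also called 0 of them.

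The strain comparison asks whether vessels of hypertensive rats differ in their matrix transcripts. None of the 7 genes tested passed the threshold in early vessels, where 0.254% of the 11011 IDs tested were called. In late vessels none passed either, and 0% of IDs were called. At an unadjusted p under 0.05 there were 2 of the 7 genes in early vessels, against 15.3% of all IDs, and 0 in late vessels, against 0.926%. DESeq2 and limma called 0 of the 7 at either stage. Of all IDs, DESeq2 called 481 early and 11 late, and limma 3 early and 22 late. The fitted log2 folds of SHRSP over Wistar were above 0 for 6 of the 7 genes in early vessels, against 45% of all IDs, and for 7 of 7 in late vessels, against 49.5% of all IDs. The 7 genes share the same libraries, so these signs are not independent. The median folds of the 7 genes were 1.09 early and 0.55 late, beside medians of -0.20 and -0.01 for all IDs tested.

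**Figure D2:**
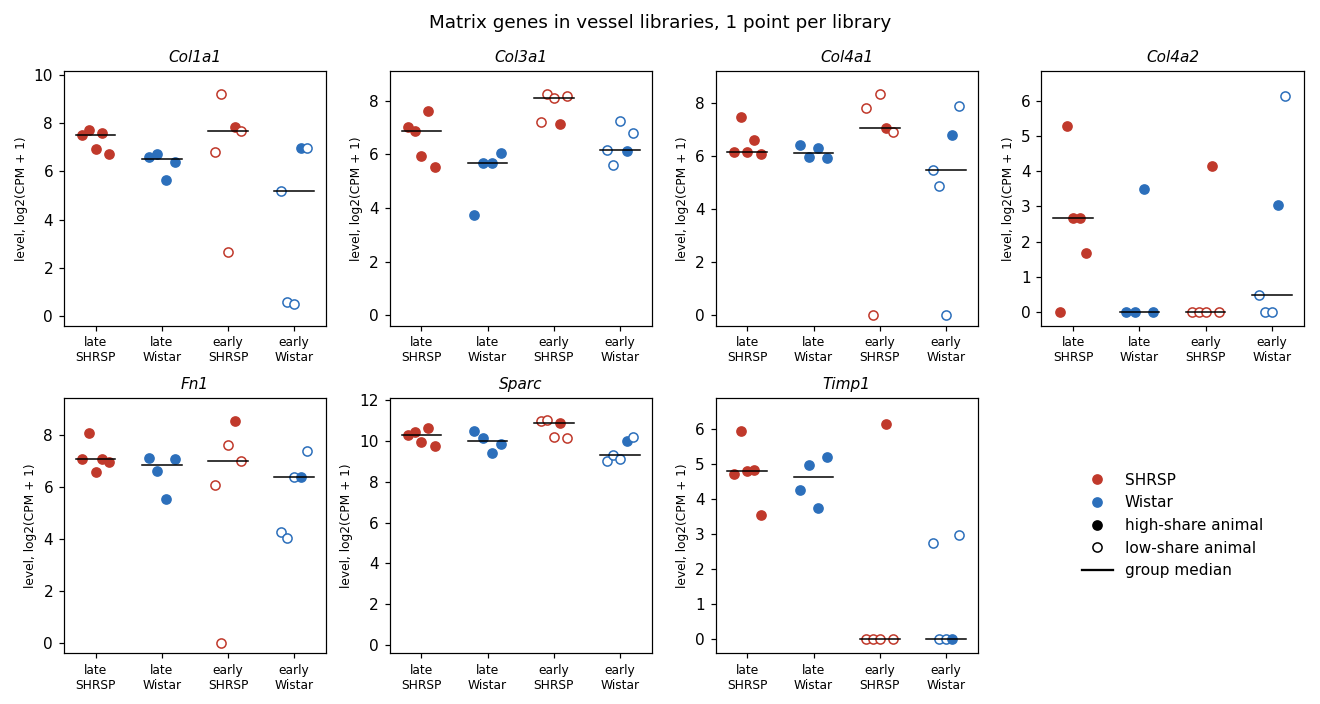
Level of each gene as log2(CPM + 1) in the 19 vessel libraries, 1 point per rat, by group, with the group median as a bar and low-share rats as open circles. Sparc is higher in most early SHRSP libraries than in early Wistar libraries, and Timp1 lies above 0 in all 9 late libraries and in 3 of the 10 early ones.

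Sparc came nearest to a strain difference. Early SHRSP vessels had 2045, 2100.5, 1161, 1860.0 and 1148 CPM, against 515, 639, 562, 1038 and 1157 CPM in early Wistar vessels. The groups overlapped only between the lowest SHRSP rat (386) and the highest Wistar rat (368). SHRSP exceeded Wistar 2.12-fold (log2 1.09 ± 0.34) with an unadjusted p of 0.00124 and an adjusted p of 0.111. Within the low-share rats alone the log2 fold was 1.03 (SE 0.43, adjusted p = 0.779) and within the 2 early high-share rats 0.84 (SE 0.53, adjusted p = 0.98), a comparison of 1 library with 1 that borrows its spread from the late rats. Without rat 383 the log2 fold was 1.04 (SE 0.35) and the adjusted p 0.0427, with 1137 IDs called in place of 28.

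Late vessels gave a smaller Sparc difference. Late SHRSP vessels had 1256, 1393, 987, 1614 and 877 CPM, against 1454, 1151, 688 and 926 CPM in late Wistar vessels. The groups overlapped over most of their range, with a log2 fold of 0.22 (SE 0.35, adjusted p = 1). Its change with stage was -0.87 (SE 0.48, adjusted p = 0.747), so the early and late differences were not shown to differ.

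Col1a1 had a wider spread. Early SHRSP vessels had 111, 599, 5.40, 231 and 205 CPM, against 35.6, 0.507, 0.398, 125 and 123 CPM in early Wistar vessels. The groups overlapped, since the lowest SHRSP value lay under 3 of the 5 Wistar values. The log2 fold was 2.01 (SE 0.90) with an unadjusted p of 0.0246 and an adjusted p of 0.247, and 1.28 without rat 377. In the 2 early high-share rats it was 0.88 (SE 0.71), again 1 library against 1. Late SHRSP vessels had 183, 212, 122, 193 and 104 CPM, against 97.0, 105, 49.3 and 83.2 CPM in late Wistar vessels, and only the lowest SHRSP rat lay under the highest Wistar rat. The late log2 fold was 0.96 (SE 0.93, adjusted p = 1), an interval of 2 SE from -0.91 to 2.83.

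Col3a1 was higher on average in SHRSP at both stages without passing the test. Early SHRSP vessels had 146, 302, 272, 139 and 285 CPM, against 70.0, 47.6, 150.3, 68.0 and 111 CPM in early Wistar vessels. All but 1 of the Wistar values lay under all SHRSP values, and the log2 fold was 1.35 (SE 0.93, adjusted p = 0.518). Late SHRSP vessels had 128, 118, 59.8, 198 and 44.9 CPM, against 12.4, 49.7, 50.2 and 64.4 CPM in late Wistar vessels. Here 3 of the 5 SHRSP values lay above all Wistar values, and the log2 fold was 1.31 (SE 1.0, adjusted p = 1).

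Col4a1 overlapped between the strains at both stages. Early SHRSP vessels had 224, 0, 323, 134 and 119 CPM, against 43.6, 28.1, 0, 112 and 238 CPM in early Wistar vessels. In late SHRSP vessels there were 70.7, 179, 70.2, 96.5 and 67.0 CPM, against 84.4, 60.9, 77.9 and 60.2 CPM in late Wistar vessels. The log2 folds were 0.93 (SE 1.0, adjusted p = 0.728) early and 0.45 (SE 1.06, adjusted p = 1) late. Single early libraries at 0 in each strain set the width of the early range.

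Col4a2 gave folds of opposite sign at the 2 stages. It had 16.6 CPM in rat 383 and 0 in the other 4 early SHRSP vessel libraries, against 0.382, 0, 0, 7.17 and 69.1 CPM in early Wistar vessels. Vessels of late SHRSP rats had 0, 38.2, 5.38, 5.31 and 2.21 CPM, against 0, 0, 10.4 and 0 CPM in late Wistar vessels. The log2 folds were -2.17 (SE 2.13, adjusted p = 0.693) early and 1.98 (SE 2.29, adjusted p = 1) late, and the intervals of 2 SE, from -6.42 to 2.08 and from -2.61 to 6.57, leave either direction possible. The late fold was 0.32 without rat 379 and 8.17 without rat 353, and the early one 0.89 without rat 368 and -8.67 without rat 383. A count of 0 in a vessel library allows 0.515 to 1.85 CPM, depending on its depth.

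Fn1 did not separate the strains in vessels. Early SHRSP vessels had 65.6, 0, 195, 364 and 126 CPM, against 18.0, 15.5, 81.5, 80.6 and 165 CPM in early Wistar vessels. The late SHRSP vessels had 132, 268, 93.7, 134 and 124 CPM, against 137, 95.2, 45.0 and 134 CPM in late Wistar vessels. The groups overlapped at both stages, with log2 folds of 1.06 (SE 0.93, adjusted p = 0.648) early and 0.55 (SE 0.99, adjusted p = 1) late.

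Over both stages together none of the 7 genes was called between the strains, where 0.0817% of IDs were. Col1a1 (1.49, SE 0.65, unadjusted p = 0.0219, adjusted p = 0.458) and Sparc (0.65, SE 0.24, unadjusted p = 0.00761, adjusted p = 0.344) were the 2 with an unadjusted p under 0.05 in their log2 folds, against 8.68% of all IDs. DESeq2 and limma called 0 of the 7, while of all IDs DESeq2 called 139 and limma 6. Whether that difference shifted between the stages was tested too, and none of the 7 was called (adjusted p from 0.747 to 1), with 0.00908% of IDs called. At an unadjusted p under 0.05 there were 0 of the 7, against 7.16% of all IDs, and both other tools called 0. Of all IDs, DESeq2 called 128 there and limma 0.

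**Figure D3:**
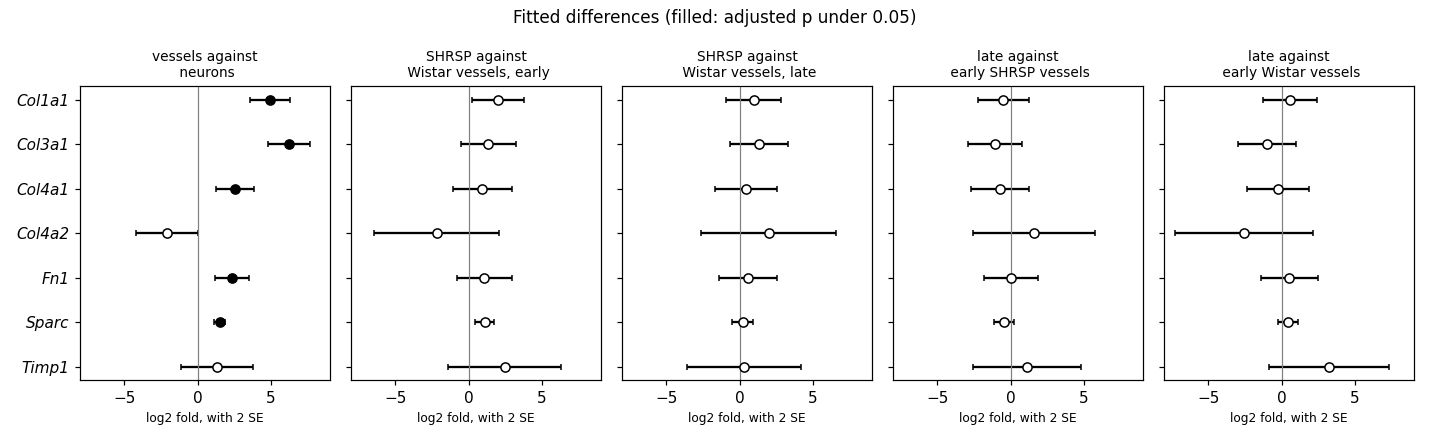
Fitted log2 folds of the 7 genes tested, with bars of 2 SE on each side, for 5 comparisons, where filled circles mark an adjusted p under 0.05. The filled circles are the 5 genes called in vessels against neurons, and all intervals of the strain and stage comparisons belong to genes that were not called.

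The stage comparison sets late against early rats of 1 strain. In SHRSP vessels none of the 7 genes passed the test, with 0.00908% of IDs called, 0 of the 7 at an unadjusted p under 0.05 against 13.9% of all IDs, and 0 by DESeq2 and by limma. In Wistar vessels none passed either, with 0.00908% of IDs called, 0 of the 7 at an unadjusted p under 0.05 against 3.64% of all IDs, and 0 by both other tools. Over all 11011 IDs DESeq2 called 358 and limma 3 in SHRSP vessels, and DESeq2 34 and limma 0 in Wistar vessels. In SHRSP the log2 folds of late over early were -0.50 (SE 0.87) for Col1a1, -1.06 (SE 0.92) for Col3a1, -0.72 (SE 1.0) for Col4a1, 0.01 (SE 0.92) for Fn1 and -0.44 (SE 0.33) for Sparc. In Wistar rats they were 0.56 (SE 0.91) for Col1a1, -1.02 (SE 0.99) for Col3a1, -0.25 (SE 1.06) for Col4a1, 0.51 (SE 0.97) for Fn1 and 0.43 (SE 0.35) for Sparc. The intervals of 2 SE held 0 for each of these. Col4a2 had 1.60 (SE 2.09) in SHRSP and -2.56 (SE 2.35) in Wistar rats.

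Timp1 differed between the stages in how many vessel libraries held it. Late SHRSP vessels had 25.1, 60.9, 26.9, 27.4 and 10.7 CPM, against 0, 0, 0, 70.5 and 0 CPM in early SHRSP vessels. Late Wistar vessels had 18.2, 30.7, 12.5 and 35.6 CPM, against 5.74, 0, 0, 0 and 6.89 CPM in early Wistar vessels. All 9 late libraries held Timp1, with 29 to 172 counts, and 3 of the 10 early libraries did. In Wistar rats the late and early values did not overlap, and in SHRSP the early rat 383 lay above all late rats.

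The fitted Timp1 folds did not pass the test, with log2 folds of 1.09 (SE 1.85, adjusted p = 0.871) in SHRSP and 3.24 (SE 2.04, adjusted p = 1) in Wistar rats. Without rat 383 the SHRSP log2 fold was 9.75 (SE 2.84, adjusted p = 0.0351), with 1310 IDs called in place of 1, and its size depends on how counts of 0 are handled. Between the sets of rats, the number of IDs detected and the presence of Timp1 moved together. Timp1 was counted in 10 of the 11 vessel libraries of high-share rats, with 9875 to 11974 IDs detected, and in 2 of the 8 of low-share rats, with 4104 to 8752. Within the sets there were exceptions. The high-share rat 349 was at 0 with 11754 IDs detected, and the low-share rats 340 and 368 held Timp1 with 8752 and 6543. Among the high-share rats alone, 5 late SHRSP libraries had 10.7 to 60.9 CPM beside 70.5 CPM in the early SHRSP rat 383, a log2 fold of -1.22 (SE 0.97, adjusted p = 0.876). In Wistar rats of that set, 4 late libraries had 12.5 to 35.6 CPM beside 0 CPM in the early rat 349, a fitted log2 fold of 9.54 (SE 2.42, adjusted p = 1). With the library set as a term, the Timp1 log2 folds of late over early changed sign, to -0.22 in SHRSP and -5.26 in Wistar vessels. Each early group has 1 high-share rat (383 and 349), on which that term rests. The part of the library set in the stage difference was not tested further.

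**Figure D4:**
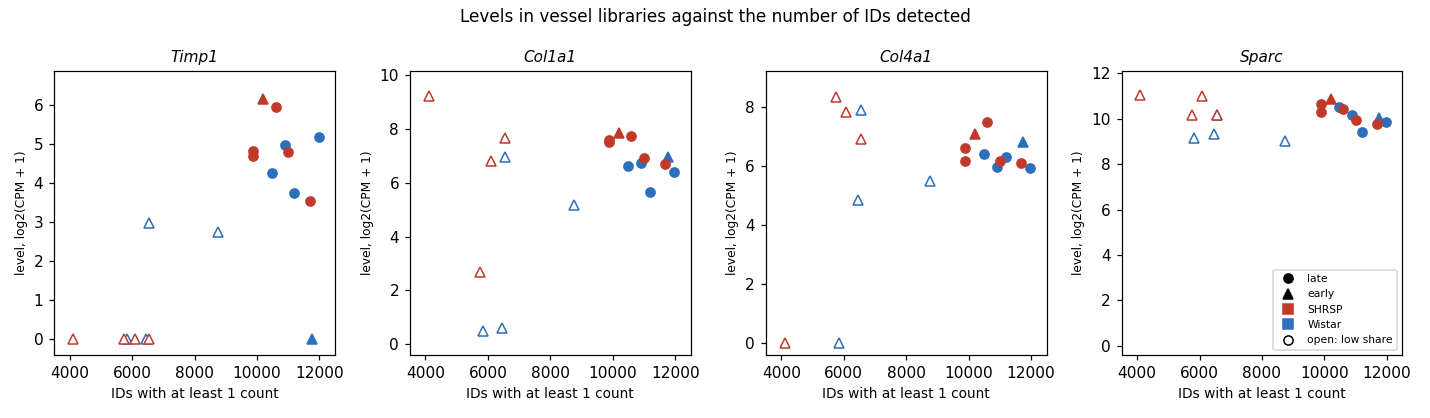
Level as log2(CPM + 1) against the number of IDs with at least 1 count in the 19 vessel libraries, for Timp1, Col1a1, Col4a1 and Sparc, with low-share rats as open symbols. Timp1 is at 0 in 6 of the 8 low-share libraries and in 1 of the 11 high-share libraries, while Sparc stays between 515 and 2100.5 CPM over the whole range.

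Between the strains Timp1 in early vessels rested on rat 383, with a log2 fold of 2.47 (SE 1.93, adjusted p = 0.591) with it and -6.06 (SE 2.45, adjusted p = 0.0791) without it. In late vessels the SHRSP values of 10.7 to 60.9 CPM overlapped the Wistar values of 12.5 to 35.6 CPM (log2 0.32 ± 1.94, adjusted p = 1).

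In neurons Col1a1, Col3a1, Col4a2 and Timp1 had at most 29 counts in a library, while Sparc lay at 292 to 583 CPM. Between the strains over both stages none of the 6 genes tested was called, with 0.674% of IDs called, 1 of the 6 at an unadjusted p under 0.05 against 7.75% of all IDs, and 0 by DESeq2 and limma. That 1 was Fn1 (log2 0.71 ± 0.25, unadjusted p = 0.0102, adjusted p = 0.356). Over all 10833 IDs DESeq2 called 159 in that comparison and limma 182. Late SHRSP neurons had 31.3, 15.5, 22.4, 19.4 and 18.2 CPM of Fn1, against 14.1, 18.8, 15.3 and 16.2 CPM in late Wistar neurons. Early SHRSP neurons had 23.0, 34.8, 29.6, 27.0 and 19.8 CPM, against 20.5, 2.75, 9.50, 21.5 and 10.6 CPM in early Wistar neurons. The strains overlapped at both stages. For Sparc in neurons the strains differed by 0.03 on the log2 scale (SE 0.12, adjusted p = 0.992), with an interval of 2 SE from -0.21 to 0.27.

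Timp1 in neurons had 0 to 11 counts per library and was kept out of the fit by the filter, so its levels are given without a test. Late SHRSP neurons had 2.79, 2.21, 3.12, 2.68 and 3.34 CPM, against 2.07, 3.30, 0.826 and 0 CPM in late Wistar neurons. Early SHRSP neurons had 3.60, 1.78, 2.22, 1.69 and 1.71 CPM, against 0.974, 0, 0, 0.642 and 0.259 CPM in early Wistar neurons. In early rats the SHRSP and Wistar values did not overlap, though the SHRSP libraries held only 5 to 7 counts and the Wistar libraries 0 to 3.

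Between the stages in neurons, none of the 6 genes was called in SHRSP, where 8.85% of all IDs were, and none in Wistar rats, where 9.31% were. At an unadjusted p under 0.05 there were 0 of the 6 in SHRSP, against 26.4% of all IDs, and 1 in Wistar rats, against 27.1%. DESeq2 called 0 in either strain, and limma called 1 in SHRSP and 0 in Wistar rats. Of all 10833 IDs DESeq2 called 1480 in SHRSP and 1556 in Wistar rats, and limma 3078 and 1413, so 1 of 6 is no more than limma's share over all IDs in SHRSP. The limma call was Col4a2, with a log2 fold of 1.66 (adjusted p = 0.0438) beside 1.47 (SE 0.75, adjusted p = 0.212) in edgeR. Late SHRSP neurons had 2.48, 6.63, 3.68, 4.69 and 7.41 CPM of Col4a2, against 0, 5.05, 1.59, 1.41 and 0.683 CPM in early SHRSP neurons. All but 1 of the early values lay under all late ones. In Wistar neurons Col1a1 gave -1.55 ± 0.73 on the log2 scale (unadjusted p = 0.0433, adjusted p = 0.169). Late Wistar neurons had 0.829, 3.30, 2.06 and 0.613 CPM of Col1a1, against 4.87, 6.73, 3.72, 9.31 and 1.55 CPM in early Wistar neurons, and the groups overlapped.

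Over the 19 vessel libraries, the 2 IDs whose levels ran most like the mean of the standardised levels of the 7 genes were ENSRNOG00000005924, with a Spearman correlation of 0.83, and ENSRNOG00000016538, with 0.82, out of 11004 IDs compared. Within the 11 high-share libraries the correlations were 0.80 and 0.85, and within the 8 low-share libraries 0.66 and 0.59. The points share depth and the number of IDs detected, and these values are a description.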

How the data were processed

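RNA of laser-cut cortical vessels and neurons was isolated with the PicoPure kit and made into Lexogen QuantSeq 3′ forward libraries, per the labels' protocols. The authors deposited 1 table of raw counts per Ensembl ID, with 0 value columns lacking a sample. Per the submitters' processing notes, the tools were HTSeq 0.6.1, STAR 2.5.3a, DESeq2 1.18.1 and FastQC 0.11.5. Build, annotation and strand setting were not given in the sources used here, so reads of overlapping or antisense genes could not be separated.

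From the counts, edgeR 4.0.16 (R 4.3.3) was fitted to the 19 libraries of each material with 4 groups (filterByExpr, TMM, robust quasi-likelihood F test, two-sided), and to all 38 libraries with the rat as a block and a material difference per group. The pairing comes from the number in the titles. Over the 19 pairs, deviations from the group means correlated between -0.231 and 0.407 (median 0.0473, 5 pairs over 0.1). P-values were adjusted over all IDs tested. The SE is the log2 fold divided by the square root of F, and fitted values use each fit's own scale. The 72 pairs of libraries within groups all differed by more than sampling noise. Numbered rats are taken as separate animals. Floors (3 counts) cover counting error only. Intervals rest on the SE from the quasi-likelihood fit, which also takes in the spread between libraries of a group. Alternatives used DESeq2 1.42.0, limma 3.58.1, other scalings and filters, subsets of rats and each rat left out. Of these steps, only the fit within a material was run on simulated counts, for the early strain comparison of vessels. The fit across materials was not.

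The genes and lists were chosen with earlier results of these data known. Lists of marker and pathway genes that had been drawn up could not be applied, since 0 IDs matched the RefSeq gene table (GRCr8). Named IDs beyond the 8 genes are the 2 most like them.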

Additional observations from a re-analysis of the deposited data

Results flagged for a closer look

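In 9 of the 56 groups of libraries examined (7 genes, 8 groups), 1 library stood farther from its neighbour than Dixon's 95% limit allows for a group of that size. Chance passes that limit in about 5% of groups only where values are normally distributed. The limit was applied to CPM without a log, some groups were at 0 in all but 1 library, and each far library was on the high side. The 9 groups are therefore a description and are not set against that share. Rat 379, a late SHRSP rat, stood apart in vessels for 3 genes, with 179 CPM of Col4a1 (the other 4 rats had 67.0 to 96.5), 38.2 CPM of Col4a2 (0 to 5.38) and 268 CPM of Fn1 (93.7 to 134). Rat 383, an early SHRSP rat, stood apart in vessels with 70.5 CPM of Timp1 and 16.6 CPM of Col4a2, where the other 4 rats of its group were at 0 for both genes. It is the only early SHRSP rat of the high-share set. Col4a2 was also far higher in 1 rat of each Wistar vessel group, with 10.4 CPM in the late rat 353 (the other 3 at 0) and 69.1 CPM in the early rat 368 (0 to 7.17). In neurons, rat 374 had 3.60 CPM of Timp1 among early SHRSP rats (1.69 to 2.22) and rat 349 had 8.35 CPM of Col3a1 among early Wistar rats (0 to 2.07). The early SHRSP neuron libraries held only 5 to 7 counts of Timp1 each. That of rat 374 had the fewest counts in total of all 38 libraries (1198386), and 3 counts in it amount to 2.16 CPM. For none of the genes did a strain difference change with stage or material past the test's threshold. The causes were not tested.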

How the results depend on the processing

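Of 2582 comparisons of a gene's log2 fold with its value under an alternative, 2408 kept their direction and their side of the threshold, 57 gained a call, 5 lost one and 112 changed sign, 0 of these 112 from a called value. The calls of Col1a1, Col3a1, Col4a1, Fn1 and Sparc in vessels against neurons held under every alternative run (26 each). The count of genes called there was 5 or 6 with a rat left out, 5 with relative log expression, without the filter on low counts, in the high-share rats and with 1 material term (added after seeing the data), 6 with limma, 7 with DESeq2 and 6 with no replicate block. IDs called there ranged from 1886 in the high-share rats to 7403 with DESeq2, against 6124, and were 3075 with no replicate block.

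Counts of genes called moved as follows. For the strain comparisons of vessels in the high-share rats alone, which rest on 1 early rat per strain, only log2 folds are given. Those of Timp1 were 11.07 early, 5.69 in the mean over stages and -10.76 in the change with stage. Limma gave 1 call between the stages in SHRSP neurons. For vessels against neurons in late SHRSP rats (3 calls, and 107 over all 12117 IDs), DESeq2 gave 5 (774 over all IDs), limma 6 (1939) and the high-share rats 6 (1361 of 14126). In early SHRSP rats (3 calls, 4742 over all IDs), DESeq2 gave 6 (6802), with Timp1 lower, the high-share rats 5 (404) and no replicate block 5 (2730). In late Wistar rats (1 call, 45 over all IDs), DESeq2 gave 2 (219), limma 6 (1701), the high-share rats 6 (885) and no replicate block 3 (57). In early Wistar rats (1 call, 82 over all IDs), DESeq2 gave 3 (2944), limma 2 (178) and no replicate block 3 (296). The high-share set has 1 early rat per strain, so its early values compare 1 library with 1 and assume the spread of the late rats. With a rat left out, counts were 0 to 1 for the early strain comparison and for the stages in SHRSP vessels (rat 383 in both), 0 to 3 for late Wistar and 1 to 2 for early Wistar rats across materials. Over all IDs these comparisons gave 7 to 1137, 0 to 1310, 21 to 85 and 24 to 908 calls, in that order.

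The log2 folds that changed sign, none of them called before, were these. With relative log expression, Col4a2 between strains over both stages was 0.00078. With the library set as a term, Timp1 was -4.72 between strains early, -2.20 over both stages and 5.04 in its change with stage, Fn1 was -0.74 and Timp1 -0.22 between stages in SHRSP vessels, and Col1a1 was -0.060, Fn1 -0.50 and Timp1 -5.26 in Wistar vessels. In neurons that term gave 0.44 for Col3a1 between strains, and -0.074 for Col4a1 and 0.0037 for Sparc between stages in SHRSP. With limma, Timp1 was -0.17 (early), -0.028 (late) and -0.10 (both stages) between strains in vessels and 0.15 in its change with stage, Col4a2 was 1.29 over both stages, Col1a1 was 0.46 between stages in SHRSP vessels and Col4a1 0.77 in Wistar vessels. In neurons limma gave 0.19 for Col1a1 and 0.75 for Col3a1 between strains and -0.17 for Col4a2 between stages in Wistar rats. Across materials it gave 0.030 for Col4a2 in late SHRSP rats and 0.22 for Fn1 in the strain difference compared between materials. With no replicate block, Col4a2 in vessels against neurons was 0.88 over all groups, 1.03 in late SHRSP, 0.91 in early SHRSP and 2.10 in early Wistar rats, Timp1 was 2.68 in early SHRSP rats, and Fn1 was 0.078 in the strain difference compared between materials.

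In the high-share rats alone, Col4a2 between strains in vessels was 1.21 early and 1.60 over both stages, and the change with stage was 0.076 for Col1a1, 0.29 for Col3a1 and 0.19 for Col4a1. Between stages it was -0.70 for Col4a2, -1.27 for Fn1 and -1.22 for Timp1 in SHRSP vessels and -0.58 for Col1a1 in Wistar vessels. In neurons it was -0.12 for Sparc between strains, -0.062 for Col4a1 and 0.14 for Sparc between stages in SHRSP, and -0.29 for Col4a2 and -0.38 for Fn1 in Wistar rats. Vessels against neurons gave 0.016 for Col4a2 over all groups, 3.61 for Col4a2 and 5.43 for Timp1 in early SHRSP rats, and 0.71 for Col4a2 and -4.16 for Timp1 in early Wistar rats. The strain difference compared between materials was 1.04 for Fn1 and 4.32 for Timp1.

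With each rat left out in turn, sign changes lay in these ranges. Between strains in vessels they were -8.67 to 0.89 for Col4a2 and -6.06 to 3.48 for Timp1 early, -0.10 to 0.58 for Timp1 late, and -3.25 to 3.10 for Col4a2 and -2.85 to 1.92 for Timp1 over both stages. The change with stage was -0.32 to 0.22 for Col3a1, -1.12 to 0.18 for Fn1 and -3.13 to 6.41 for Timp1. Between stages they were -0.81 to 0.26 for Col1a1, -0.059 to 8.17 for Col4a2 and -0.32 to 0.78 for Fn1 in SHRSP vessels, and -0.57 to 0.63 for Col4a1 and -8.61 to 0.26 for Col4a2 in Wistar vessels. In neurons they were -0.25 to 0.17 for Col1a1, -0.21 to 0.15 for Col3a1 and -0.032 to 0.065 for Sparc between strains, and -0.21 to 0.40 for Col4a2 between stages in Wistar rats. Vessels against neurons gave -1.22 to 0.39 for Col4a2 in late SHRSP and -2.51 to 0.59 in early Wistar rats. The strain difference compared between materials was -0.16 to 0.79 for Col3a1, -0.15 to 2.0 for Col4a2 and -0.36 to 0.28 for Fn1. Without a change of sign, the early strain fold in vessels went to 1.76 for Col4a1 and 1.71 for Fn1 without rat 368, and to 0.41 for Fn1 without rat 383 (0.93 and 1.06 with all rats). The causes were not tested.

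The number of IDs called over the whole table also moved with the fit. Leaving out 1 rat moved the early strain comparison of vessels between 7 and 1137 (28 in the fit reported), the stages in SHRSP vessels between 0 and 1310 (1), and the stages in neurons between 180 and 1951 in SHRSP (959) and between 197 and 1847 in Wistar rats (1009). The other settings gave 3 to 481, 0 to 358, 0 to 3078 and 0 to 1556 for the same comparisons. Col4a2 and Timp1 had 0 counts in 10 and 7 of the 19 vessel libraries, where a count of 0 allows 0.515 to 1.85 CPM, and the vessel library with the most counts (rat 378) is among those at 0 for Col4a2. Where the filter removed a gene there was no value: early strain folds of Col4a2 and Timp1 in the low-share rats alone or in the compared groups alone, stage folds in the compared groups alone for Col4a2 in vessels, Col3a1 in neurons and Col1a1 in SHRSP neurons, and neuron Col3a1 without any 1 of 4 rats. DESeq2 gave no adjusted p for Col3a1 between stages in Wistar neurons.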
